A study of Drosophila melanogaster with 3 samples.

Results

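Translation initiation, elongation and release factor genes were taken here as the protein-coding genes whose symbol begins with eIF, eEF or eRF and a digit in the Ensembl annotation of the Drosophila melanogaster genome. The pattern matched 53 of 13945 protein-coding genes, of which 44 were named as initiation factors, 7 as elongation factors and 2 as release factors. For each gene the strongest peak summit within 500 bp of any of its annotated start sites was taken. The data are chromatin immunoprecipitation sequencing (ChIP-seq) peak lists for CG17385, a protein assayed as a transcription factor. The material was whole embryos of a 0 to 24 h collection, male and female pooled, from a stable transgenic line that makes CG17385 with GFP at its C-terminal end. All 3 samples belong to 1 group and are labelled as biological replicates 1, 2 and 3. No untagged embryos are analysed here. Whole embryos mix all cell types, and which cells carry a peak cannot be told apart. The labels conflict: a line of free text speaks of an input sample, while the assay, the antibody and the peak lists are those of a ChIP of CG17385, which is how they were read.

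Initiation factors bring the initiator tRNA, the small ribosomal subunit and the capped mRNA together at the start codon, elongation factors deliver aminoacyl-tRNAs and move the ribosome along the message, and release factors free the finished protein at a stop codon. The eIF2 complex carries the initiator tRNA, eIF2B recharges eIF2 with GTP, eIF3 is a large scaffold on the small subunit, and the eIF4 factors recognise the cap and unwind the leader. Most of these genes serve every growing cell, while Drosophila also holds copies that are used mainly in the testis.

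CG17385 peaks lay at the start sites of 24 of the 53 translation factor genes, against 3722 of the 13892 other protein-coding genes, counting peaks of the list that passed the authors' irreproducible discovery rate (IDR) step. The shares were 45.3% (Wilson 95% interval 32.7 to 58.5) for the translation factor genes and 26.8% for the other genes, and 26.9% of all genes had such a peak. The genes with the highest peak signal were eIF4EHP, eIF6, eRF3, eEF1gamma, eRF1, eIF2alpha and eIF1. A further 6 translation factor genes had a peak in the list made from the pooled replicates only, which brought the count to 30 (56.6%), against 47.6% of all genes. The pooled list and the replicate lists are labelled as peaks and background, so their entries outside the IDR list may be background. The difference from the other genes was 18.5 percentage points in the IDR list and 9.02 points in the pooled list. The interval covers counting error over genes, which are not independent replicates, and no test was made because the genes were chosen with earlier results of these data known. The number of annotated start sites moved with this result. Of the translation factor genes with 1 start site, 8 of 31 (25.8%) had an IDR promoter peak, against 2079 of 10215 (20.4%) of the other genes with 1. Of those with 2 or more, 16 of 22 (72.7%) had a peak, against 1643 of 3677 (44.7%) of the other genes. The part of start site number in the result was not tested.

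**Figure D1:**
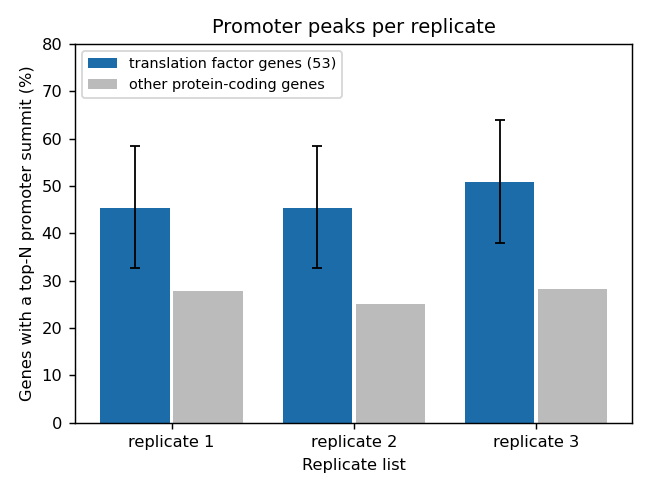
The bars give the percentage of genes with a summit among the 7588 strongest peaks of each replicate list within 500 bp of a start site, for the 53 translation factor genes (blue, with Wilson 95% intervals) and the 13892 other protein-coding genes (grey). The blue bar is the higher in each replicate, at 45.3%, 45.3% and 50.9%, against 27.8%, 25.1% and 28.2% in grey.

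The same share was then taken in each replicate list by itself, using its 7588 strongest peaks, which is the length of the IDR list. A summit of replicate 1 lay within 500 bp of a start site at 24 translation factor genes (45.3%), against 27.8% of the other genes and 27.9% of all genes. Replicate 2 gave 24 (45.3%), against 25.1% of the other genes and 25.2% of all genes. Replicate 3 gave 27 (50.9%), against 28.2% of the other genes and 28.3% of all genes. Translation factor genes thus had the higher share in each of the 3 lists. The mean difference was 20.1 ± 2.60 percentage points (SD, n = 3 replicates), with 47.2 ± 3.23% for the translation factor genes and 27.0 ± 1.69% for the other genes. With 3 replicates the smallest p that a 2-sided exact sign-flip test can give is 0.25, and no such test was made. Requiring an IDR summit that had a summit within 100 bp among the 7588 strongest of every replicate left 18 translation factor genes (34.0%), against 19.1% of the other genes and 19.2% of all genes.

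The sequences under the peaks are shown because a core promoter word was found under several of them. The DNA replication-related element (DRE) is TATCGATA, which reads the same on both strands. It lay within 100 bp of the summit at 7 of 24 translation factor genes (29.2%), against 180 of all 3481 IDR promoter peaks (5.17%). The 24 are the strongest summit of each gene. The 3481 also include weaker summits of the same genes and the summits of translation factor genes. The 24 lay a median of 62.5 bp from a start site, against 141 bp over all genes with an IDR promoter peak. The part of these differences in the shares was not tested. In flies the DRE is bound by DREF, a factor of housekeeping promoters. Its centre was 8.5 bp from the summit at eIF3a, 15.5 bp at eIF2alpha, 21.5 bp at eEF1gamma, 43.5 bp at eIF1, 47.5 bp at eIF4A, 58.5 bp at eIF2A and 92.5 bp at eIF6. The stretches below are the part of that window outside annotated exons, in dm6 coordinates, read 5′ to 3′ on the strand of the gene from the RefSeq copy of the Release 6 genome. They are chr3R:29220056-29220171 on the plus strand for eEF1gamma and chrX:16446994-16447087 on the minus strand for eIF2alpha. The others are chr3R:4433896-4433964 on the minus strand for eIF3a, chr2L:5981663-5981763 on the plus strand for eIF4A and chr3R:24109075-24109275 on the minus strand for eIF4EHP. Capitals mark the DRE and, at eIF2alpha, also GTGTGACC, the reverse complement of the promoter motif 1 core GGTCACAC. The eIF4EHP stretch lies under the strongest peak of the set and holds neither word, so all of it is in lower case.
eEF1gamma: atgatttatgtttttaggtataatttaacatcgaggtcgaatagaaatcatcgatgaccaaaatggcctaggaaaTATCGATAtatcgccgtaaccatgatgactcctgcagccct
eIF2alpha: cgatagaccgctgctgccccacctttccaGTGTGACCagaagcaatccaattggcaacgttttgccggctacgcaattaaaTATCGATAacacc
eIF3a: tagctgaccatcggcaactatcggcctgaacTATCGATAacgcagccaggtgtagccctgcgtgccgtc
eIF4A: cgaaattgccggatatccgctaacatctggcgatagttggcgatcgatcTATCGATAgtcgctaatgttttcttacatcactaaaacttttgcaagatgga
eIF4EHP: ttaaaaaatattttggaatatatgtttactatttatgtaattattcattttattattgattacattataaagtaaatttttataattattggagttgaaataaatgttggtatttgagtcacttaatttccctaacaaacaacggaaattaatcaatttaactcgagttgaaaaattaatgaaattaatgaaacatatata

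The same word was counted around start sites, whether or not a peak lay there, after the summit counts had been seen. A DRE lay within 250 bp of a start site at 16 of 53 translation factor genes (30.2%), against 1450 of 13892 other genes (10.4%). Genes with more start sites had more sequence searched. Of the 53 genes, 22 had 2 or more start sites, against 3677 of the 13892. The part of start site number in these shares was not tested. The DRE was found at 8 of the 24 translation factor genes with an IDR promoter peak (33.3%) and at 8 of the 29 without (27.6%). Among the other genes it was found at 562 of 3722 with a peak (15.1%) and 888 of 10170 without (8.73%). The word was thus present at eIF3c and eRF1 near a start site but not under their strongest summit. It was also present at eEF1delta, eIF1A, eIF2Bbeta, eIF2gamma, eIF3f1, eIF3l, eIF4B and eIF4E6, none of which had an IDR promoter peak.

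Other core promoter words were counted within 100 bp of the summits in the same way, on both strands. GGTCACAC was found at 3 translation factor summits (12.5%: eIF2alpha, eEF1alpha1 and eIF2A), against 3.45% of all promoter summits. The 5 letters CGATA, part of the BEAF-32 site and contained in the DRE, were found at 13 (54.2%), against 32.3%. The motif 7 core, CATCACTA or CATCGCTA, was found at eIF3m and eIF4A (8.33%), against 1.78%. The shares were closer for CACGTG with 8.33% against 3.10%, for CAGCTG with 12.5% against 13.7%, for GAGAGAG with 8.33% against 8.10% and for TATAAA with 29.2% against 30.2%. TCTTTCT, which is 1 form of the initiator found at ribosomal protein and translation factor genes, was found at 0 of the 24 summits, against 6.38% of all promoter summits. Within 250 bp of a start site it was found at 2 of the 24 genes with an IDR promoter peak (8.33%) and 1 of the 29 without (3.45%). The shares of the other genes were 15.5% with a peak and 9.46% without. In the later count around start sites, over genes with an IDR promoter peak, GGTCACAC was at 20.8% of translation factor genes, against 14.0% of the other genes. For CGATA it was 83.3% against 72.8%, and for the motif 7 core 12.5% against 6.13%. Without such a peak, the shares were 13.8% against 7.4%, 69.0% against 61.9% and 6.9% against 3.54%, in the same order. Among genes with such a peak, CACGTG was at 16.7% against 11.8% and CAGCTG at 37.5% against 41.9%. GAGAGAG was at 20.8% against 18.5% and TATAAA at 75.0% against 63.4%. Without a peak, CACGTG was at 10.3% against 7.45% and CAGCTG at 13.8% against 27.2%. GAGAGAG was then at 10.3% against 8.14% and TATAAA at 37.9% against 58.6%. Each difference between such shares rests on a few genes and was not tested. The GC content of the window had a median of 43.0% at the 24 summits, against 38.3% at all 3481, and ran between 18.4% at eIF4EHP and 51.2% at eEF1alpha1.

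Initiation factor genes had an IDR promoter peak at 18 of 44 (40.9%), against 26.9% of all genes, a pooled-list peak only at 4, and neither at 22. Elongation factor genes had an IDR promoter peak at 4 of 7 (57.1%), and both release factor genes had a peak. The median signal over the genes with a peak was 411 for initiation and 519 for elongation, on the authors' own signal scale, which is not stated and is used here only within a list. Over all 24 genes the median was 446, against 382 over all genes with an IDR promoter peak. A signal of 1000 or more was reached at 7 of the 53 translation factor genes (13.2%), against 5.41% of the other genes and 5.44% of all genes. With 7 elongation and 2 release factor genes, the shares of the classes cannot be ranked.

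**Figure D2:**
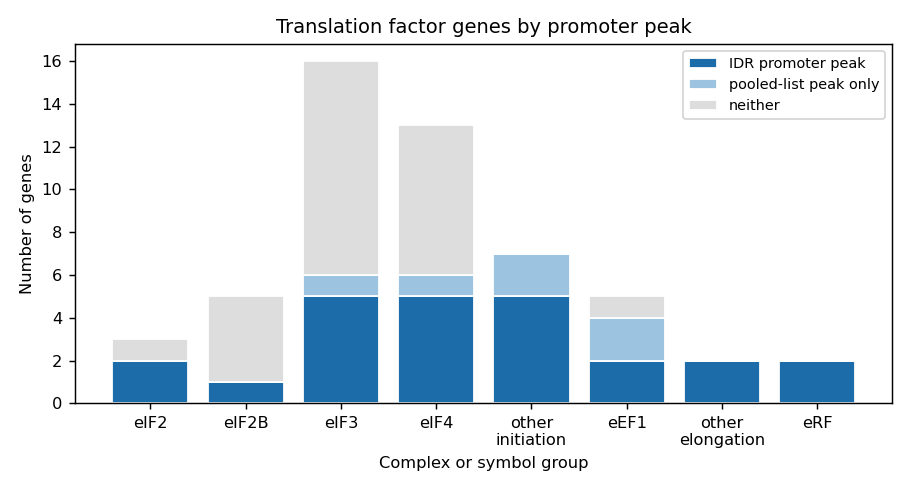
Stacked bars give the number of translation factor genes in each complex or symbol group with an IDR promoter peak (dark blue), a pooled-list peak only (light blue) or neither (grey). eIF3 has 5 of 16 genes in dark blue, eIF2B 1 of 5, and the other initiation factors 5 of 7 with none in grey. Of all genes, 26.9% had an IDR promoter peak and 47.6% a pooled-list peak.

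**Figure D3:**
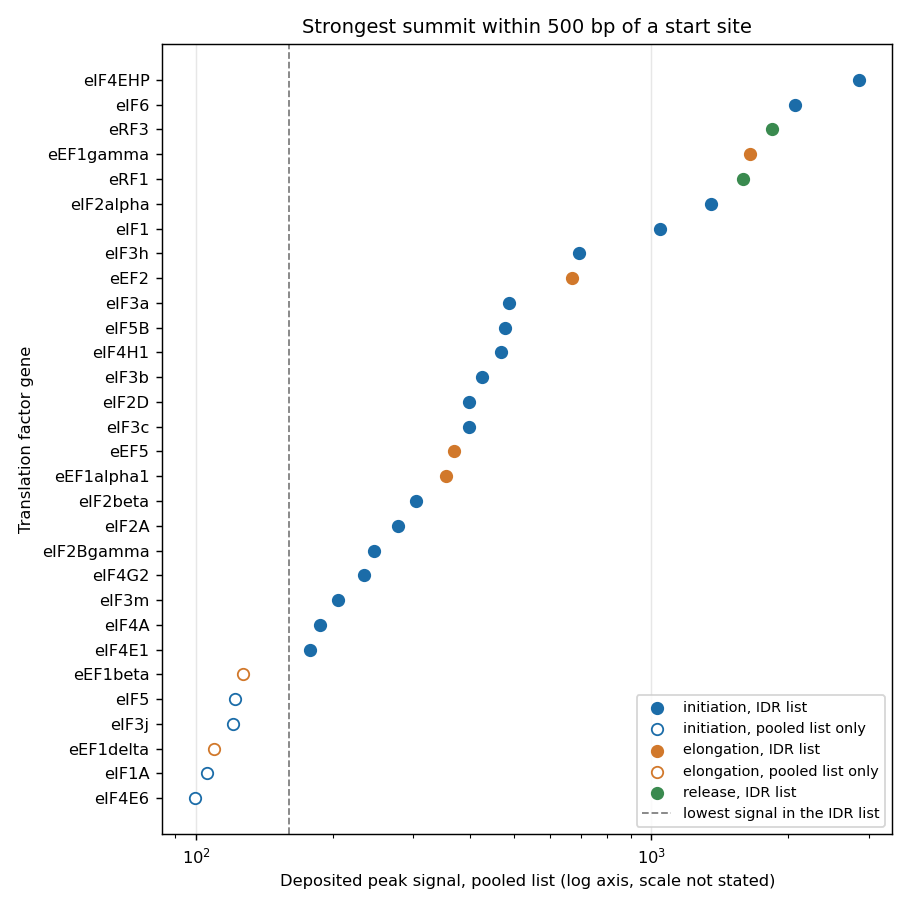
Each point is the deposited signal, on a log axis, of the strongest pooled-list summit within 500 bp of a start site, for the 30 translation factor genes with such a summit, coloured by class. Filled points passed the IDR step, open points did not, and the dashed line is the lowest signal of the IDR list. Signals run between 2863 at eIF4EHP and 99.5 at eIF4E6.

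Among the eIF4 genes the strongest peak was at eIF4EHP (FBgn0053100), whose protein binds the mRNA cap without recruiting eIF4G and so holds translation down. Its summit was on 3R at 24109175, 215 bp upstream of the start site, in a peak between 24108891 and 24109424. The signal was 922 in replicate 1, 744 in replicate 2 and 1214.7 in replicate 3, at ranks 62, 75 and 68 of 30000 peaks. These were the best ranks of any translation factor gene in each replicate, and they did not overlap those of the next gene. The start site of the neighbour CG18428 was nearer, at 161 bp. eIF4EHP also held 9 IDR summits between its annotated gene ends and eIF5B held 8, whereas no other translation factor gene held more than 2. eIF4EHP and eIF5B also have the longest annotated spans of the set, 24063077 to 24108960 on 3R and 3428658 to 3460977 on 3L. The counts were not scaled by length, and the summits were not assigned to nested genes.

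The remaining eIF4 genes had far weaker peaks or none. eIF4H1, a cofactor of the eIF4A helicase, had a signal of 468 with a summit 114 bp downstream of a start site and ranks of 1568, 2387 and 2719 in replicates 1, 2 and 3. eIF4G2, a copy of the eIF4G scaffold that is used in the testis, had 233 with ranks 3610 in replicate 1 and 7924 in replicate 3. Its start site and that of CG33111 were both 6 bp from the summit, and no summit of replicate 2 lay within 100 bp. eIF4A, the helicase itself, had a signal of 187 at 1 bp from a start site, with ranks 5011 in replicate 2 and 4373 in replicate 3 and no matched summit in replicate 1. eIF4E1, the main cap-binding protein, had the lowest IDR signal of the set, 178, and was matched in replicate 3 only, at rank 3774. eIF4E6 reached the pooled list only, with a signal of 99.5 and ranks 8696 in replicate 1 and 16259 in replicate 3, and the start site of CG1951 lay 44 bp from its summit. eIF4B, eIF4E3, eIF4E4, eIF4E5, eIF4E7, eIF4G1 and eIF4H2 had no pooled-list peak. The eIF4 genes thus spanned the whole range of the set, with 5 of 13 having an IDR promoter peak (38.5%), against 26.9% of all genes.

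Of the eIF2 subunit genes, eIF2alpha and eIF2beta had a peak and eIF2gamma, the subunit that binds the initiator tRNA, did not. eIF2alpha (FBgn0261609) encodes the subunit whose phosphorylation lowers initiation under stress. Its summit was on X at 16446987, 6 bp inside the start site, with a signal of 1349. The replicate signals were 422, 341 and 597 at ranks 502, 516 and 460, a mean rank of 493 ± 29.1 (SD, n = 3). eIF2beta had a signal of 304 at 292 bp upstream and ranks of 7599, 2418 and 3875. A further summit of 224 lay 306 bp downstream. eIF2gamma had no pooled-list peak, although weak summits of rank 9492 in replicate 1 and 8686 in replicate 3 lay in its window.

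The eIF2B exchange factor had a peak at 1 of 5 subunit genes (20.0%), eIF2Bgamma, against 26.9% of all genes. Its signal was 246 at 47 bp upstream, with ranks 7190 in replicate 2 and 3782 in replicate 3 and no matched summit in replicate 1. At eIF2Bbeta the nearest IDR summit lay 682 bp upstream, outside the window, and its signal of 4712 was the 7th highest of the IDR list. At eIF2Bdelta the nearest summit lay 757 bp upstream with a signal of 204. eIF2Balpha and eIF2Bepsilon had no IDR summit within 5000 bp.

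The eIF3 scaffold had an IDR promoter peak at 5 of 16 subunit genes (31.2%), close to the 26.9% of all genes. eIF3h, eIF3a, eIF3b, eIF3c and eIF3m had a peak, eIF3j had a pooled-list peak only, and the other 10 had neither. Those 10 were eIF3d1, eIF3d2, eIF3e, eIF3f1, eIF3f2, eIF3g1, eIF3g2, eIF3i, eIF3k and eIF3l. The strongest summit, at eIF3h, had a signal of 694 and lay 276 bp downstream of a start site, at rank 967 in replicate 2 and 1151 in replicate 3. No summit of replicate 1 lay within 100 bp of it, but a further eIF3h summit of signal 592, 23 bp downstream, was among the 7588 strongest in every replicate. eIF3a had a signal of 486 with ranks 2640, 2751 and 1750, and the start site of CG1074, 27 bp from the summit, was nearer than its own at 43 bp. eIF3b had 424 with ranks 2228, 3019 and 2586, and eIF3c had 397 with ranks 3886, 2324 and 2545. The replicates thus placed eIF3a, eIF3b and eIF3c in the same range, between ranks 1750 and 3886. eIF3m, with a signal of 204, ranked 15411 in replicate 1 but 6003 and 3839 in the other two.

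The 7 other initiation factor genes, grouped only as those left over by symbol, all had at least a pooled-list peak, against 47.6% of all genes. An IDR promoter peak was found at 5 of them (71.4%), against 26.9% of all genes. eIF6 (FBgn0034915), whose protein keeps free large subunits from joining small ones, had the highest signal of these, 2073, with a summit 100 bp upstream of its start site. Its replicate signals were 546, 575 and 972, at ranks 309, 155 and 133 (mean 199 ± 95.9, SD, n = 3). eIF1 (FBgn0035423), which guards start codon choice, had a signal of 1046 on 3L at 3223005, with ranks 937, 651 and 664. This summit was 336 bp upstream of eIF1 and 45 bp from the start site of the ribosomal protein gene RpL28, and a further summit of 483 lay 121 bp upstream of eIF1. eIF5B, a GTPase of subunit joining, had 477 with ranks 2210, 1835 and 2228. eIF2D, known for delivering tRNA in reinitiation, had 398 with ranks 2502, 2258 and 3352. eIF2A, an alternative tRNA carrier, had 277 with ranks 5901, 6070 and 3055. These 5 genes were among the 7588 strongest of every replicate. eIF5 and eIF1A reached the pooled list only. eIF5, which prompts eIF2 to hydrolyse GTP, had a signal of 122 with ranks 26837 in replicate 1 and 7394 in replicate 3, and the start site of CG46312 coincides with its own at the summit. eIF1A, a partner of eIF1 on the small subunit, had 106 with ranks 6017 in replicate 2 and 7904 in replicate 3, and the start site of Vps39 was nearer, at 37 bp.

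Among the elongation factor genes, eEF1gamma (FBgn0029176), a structural subunit of the eEF1 exchange complex, had the strongest peak. Its summit was on 3R at 29220156, 16 bp upstream of the start site, with a signal of 1646. The replicate signals were 465, 400.1 and 787 at ranks 423, 375 and 263 (mean 354 ± 82.1, SD, n = 3). eEF2, the translocase, had 670.4 at 3 bp from a start site with ranks 1229, 1140 and 1519. eEF5, the hypusine-bearing homologue of eIF5A, had 368 at 17 bp upstream, and its rank of 6837 in replicate 1 stood apart from 2378 and 2377 in replicates 2 and 3. eEF1alpha1, which delivers aminoacyl-tRNA, had 355 at 18 bp upstream with ranks 4018, 3410 and 2430. The summits of these 4 genes all lay within 18 bp of a start site. The exchange subunits eEF1beta and eEF1delta reached the pooled list only, with signals of 127 and 109, and eEF1alpha2 had no pooled-list peak.

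Both release factor genes had strong peaks in every replicate. eRF3 (FBgn0020443), the GTPase, had a signal of 1840.4 on 2L at 12434863, 29 bp upstream of a start site, with replicate signals of 624, 497 and 721 at ranks 218, 236 and 314. Further IDR summits of 326 and 196 lay within 500 bp of its other start sites, and the start site of SC35 was 198 bp from the strongest. eRF1 (FBgn0036974), which reads the stop codon, had a signal of 1589 on 3L at 20347949, with replicate signals of 486, 365 and 732 at ranks 393, 451 and 305. That summit was 406 bp upstream of eRF1, the farthest of the 24, and 7 bp from the start site of Rbbp5. A further eRF1 summit, 200 bp upstream, had a signal of 636. eRF3 ranked ahead of eRF1 in replicates 1 and 2 and behind it in replicate 3, so their order is within the spread of the replicates.

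**Figure D4:**
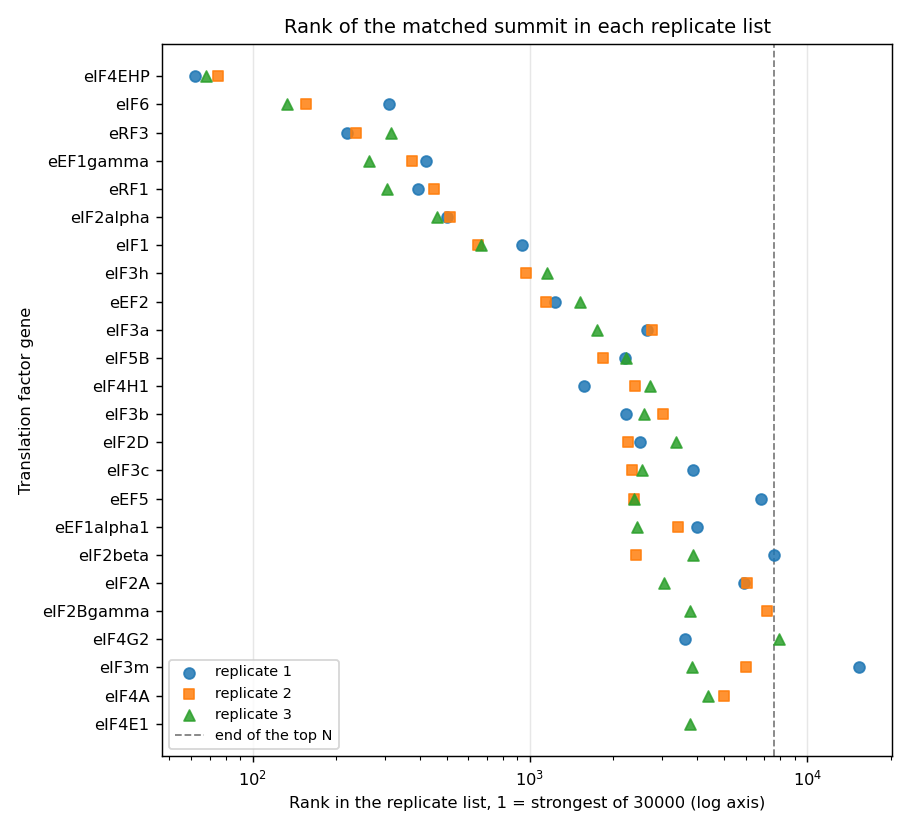
Each row is a translation factor gene with an IDR promoter peak, in order of pooled signal, and the 3 symbols give the rank, on a log axis, of the summit within 100 bp in each replicate list of 30000 peaks. A missing symbol means no summit within 100 bp. The symbols of eIF4EHP lie at ranks 62, 75 and 68, and those of eIF3m span the widest range, with replicate 1 at 15411.

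The deposited −log10 q-value of the 24 summits in the pooled list ran between 3.38 and 3.79, and that of the 6 summits outside the IDR list between 1.67 and 2.44. In replicate 1 it was 1.15 at eIF3m, against 3.23 in replicate 2 and 3.41 in replicate 3. Among matched summits of the 6 genes outside the IDR list, it fell to 0.375 at eIF5 (replicate 1) and 0.404 at eEF1beta (replicate 2).

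Of the 24 strongest summits, 17 were among the 7588 strongest in every replicate, 5 in exactly 2 replicates, 2 in exactly 1 and 0 in none. The 5 were eIF3h, eIF2beta, eIF2Bgamma, eIF3m and eIF4A, and the 2 were eIF4G2 and eIF4E1. Counting any IDR promoter summit of a gene, every replicate held a match at 18 of the 24 translation factor genes. The like count over all genes was 2674 of the 3746 with an IDR promoter peak, a similar share. These counts depend on the match within 100 bp of the summit. When a summit anywhere within 500 bp of a start site was accepted, a rule added after the values were seen, 22 of the 53 translation factor genes (41.5%) had an IDR promoter peak and a summit among the 7588 strongest in every replicate, against 20.2% of the other genes and 20.3% of all genes. Of the 24 genes only eIF3m, at rank 11555 in replicate 1, and eIF4E1, at rank 12035 in replicate 2, then fell outside. In the order of the strong genes, the ranks of eIF4EHP (62 to 75) lay apart from those of eIF6 (133 to 309), while eIF6, eRF3, eEF1gamma and eRF1 overlapped their neighbours in the order. eIF2alpha (460 to 516) and eIF1 (651 to 937) did not overlap the genes beside them. Across the 19 genes matched in all 3 lists, Spearman's rho of the ranks was 0.896 between replicates 1 and 2, 0.870 between 1 and 3 and 0.856 between 2 and 3. This describes genes of the same 3 libraries, whose peak calls shared a file taken here as the control, and genes are not independent replicates.

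The like-named genes were compared within 12 groups, some of which are true copies and some partners that share only a name. Replicate ranks here are those of the strongest summit within 500 bp of a start site, without the match within 100 bp. In 9 of the groups at least 1 gene had a pooled-list peak, and in 7 of these the same gene led in all 3 replicates. The 7 include eIF4A, whose lead was fixed in advance because eIF4A3 was not ranked in the replicate lists. eIF4EHP led the 7 cap-binding proteins, eIF4G2 led eIF4G1, eIF4H1 led eIF4H2, and eEF1alpha1 led eEF1alpha2. eIF1 led eIF1A and eIF5B led eIF5. eIF4A had a peak where eIF4A3 (annotated as CG7483 and outside the symbol pattern) had no pooled-list peak. The summit used for eIF4A in replicate 1 had rank 7016 and lay 112 bp from a start site. That used for eIF4G2 in replicate 2 had rank 5146 and lay 123 bp from a start site. In the pair of eEF1beta and eEF1delta, eEF1beta had the higher pooled signal, but the order by mean rank was the reverse. In that mean, a list with no summit in the window counted as the rank after its last peak. The window ranks were 13825 and 5621 in replicates 2 and 3 for eEF1beta, and 9817, 24461 and 13654 for eEF1delta. Within 100 bp of the pooled summit, eEF1beta was matched at ranks 25950 and 5621 in replicates 2 and 3, and eEF1delta at 9817 and 13654 in replicates 1 and 3. The eIF3d, eIF3f and eIF3g pairs had no pooled-list peak at either gene. The testis copy eIF4G2 had a peak where eIF4G1, on chromosome 4, had none.

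**Figure D5:**
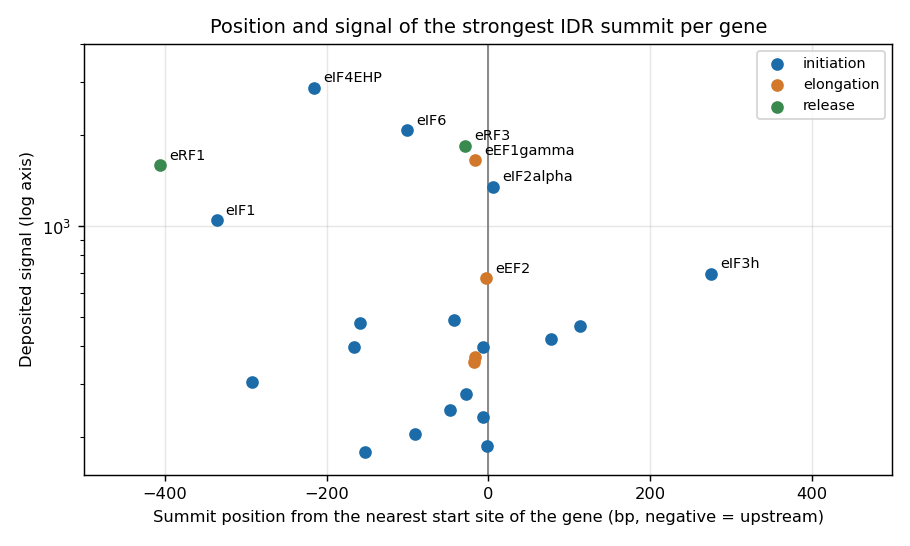
Each point is the strongest IDR summit of a translation factor gene, placed by its distance from the nearest start site of the gene (negative is upstream) and by its deposited signal on a log axis. The strong peaks of eRF1, eIF1 and eIF4EHP stand 406, 336 and 215 bp upstream, and 12 of the 24 points lie within 50 bp of the start site.

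The 24 strongest summits lay a median of 62.5 bp from the start site, against 141 bp over all genes with an IDR promoter peak. Distances were taken to the nearest of all annotated start sites of the gene. Of the 24 genes, 16 had 2 or more start sites, against 1643 of the 3722 other genes with a peak. The part of start site number in the distance was not tested. Of the 24 summits, 20 were upstream and 4 downstream, and 12 were within 50 bp. The start site of another gene was nearer at 4 (eIF4EHP, eRF1, eIF1 and eIF3a) and as near at eIF4G2, while at 19 the nearest was that of the gene itself. In all, 8 of the 24 summits also lay within 500 bp of a start site of another gene, as did 29.9% of all IDR promoter peaks. At these promoters the peak cannot be assigned to a gene. Counting any IDR summit in the window and only for the gene with the nearest start site left 22 translation factor genes (41.5%), against 21.0% of the other genes and 21.1% of all genes.

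Among the 29 translation factor genes without an IDR promoter peak, 6 had a pooled-list peak and 23 had neither. The signal bound of the IDR list was 159.9, and the nearest genes on either side of it were eIF4E1 at 178 and eEF1beta at 127. Of the 23, eIF3f1 and eIF3k had a weak summit in all 3 replicate lists, at ranks 9585 or worse, and eIF2gamma, eIF3d1 and eIF3i in 2. Another 8 had a weak summit in 1 list and 10 in none. The 10 were eIF2Balpha, eIF2Bbeta, eIF3d2, eIF3f2, eIF3g2, eIF4B, eIF4E3, eIF4E5, eIF4G1 and eIF4H2. The distance to the nearest IDR summit had a median of 8774 bp over the 29 genes, against 8374.5 bp over the other genes without a promoter peak. It was longest at eIF4B, 590652 bp. Just outside the 500 bp window were eIF1A with a summit of signal 201.4 at 513 bp, eIF2Bbeta at 682 bp and eEF1beta with summits of 192 at -695 bp and 659 at -897 bp. Just inside, the farthest of the strongest summits was that of eRF1 at 406 bp, and eRF1 also had the summit at 200 bp.

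By chromosome arm, an IDR promoter peak was found at 4 of 6 translation factor genes on 2L, 7 of 12 on 2R, 6 of 12 on 3L, 5 of 15 on 3R, 2 of 7 on X and 0 of 1 on chromosome 4. The share of all genes was 27.0% on 2L, 25.1% on 2R, 27.9% on 3L, 28.0% on 3R, 26.1% on X and 23.8% on chromosome 4. With so few genes per arm, no order of the arms can be read.

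Other genes of translation, outside the symbol pattern, were taken from a list of 41, of which 40 were found in the annotation. Of these, 19 (47.5%) had an IDR promoter peak, against 26.9% of all genes. The share was 6 of 8 for a list of genes that modify translation factors, to which the selenocysteine factor eEFSec had been added (75.0%), 8 of 15 for regulators and cofactors (53.3%), 4 of 9 for recycling and rescue factors (44.4%) and 1 of 8 for organelle factors (12.5%). The highest signals were at Ltn1, a ubiquitin ligase of stalled ribosomes, with 4414, and at larp, an RNA-binding regulator of ribosomal protein mRNAs, with 3890.4. Trmt112, a partner of the methyltransferase that acts on eRF1, had 2034, and Dph4, of the diphthamide pathway that modifies eEF2, had 1099.6. Rack1, a protein of the small subunit, had 810.3. Several of these summits also lay near the start site of a neighbour. CG9300 started 115 bp from the Ltn1 summit, Ilk 67 bp from that of Trmt112 and the ribosomal protein gene RpL13A 40 bp from that of Dph4, whose own start site was 309 bp away. The kinase PEK, which phosphorylates eIF2alpha, had a peak of 432, and Gcn2, which does the same, had no pooled-list peak. Thor, the 4E-BP that binds eIF4E1, had 376, and the enzymes Dhps and nero, which place hypusine on eEF5, had 428 and 252.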

How the data were processed

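The authors deposited a peak list for each replicate, a list from the 3 replicates pooled and an IDR list, and the text descriptions deposited with the samples say that each replicate list was made from that replicate's alignment and a further file common to all, taken here as the shared control. Chromatin was sonicated to 200 to 800 bp and coordinates are dm6, per the labels. The aligner, peak caller and IDR threshold are not named by any source used here, and read depth is unknown. The signal of each peak (scale not stated) and the −log10 of its q-value were deposited by the authors, as was the summit offset. Each replicate list and the pooled list has 30000 entries, and the IDR list has 7588. The replicate and pooled lists are labelled as peaks and background, made as input for the IDR step. Their entries are called peaks here, although the weaker ones may be background. Ranks are by signal within a list. No interval on reads was computed.

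Start sites of all protein-coding transcripts came from Ensembl release 115 on chromosomes X, 2L, 2R, 3L, 3R and 4, and sequence from the RefSeq copy of the Release 6 assembly. Summits (1-based) of different lists were matched within 100 bp. Motifs were searched on both strands within 100 bp of a summit and 250 bp of a start site. Wilson 95% intervals were computed with statsmodels 0.14.6 in Python 3.11.15, with numpy 2.4.6 and pandas 2.3.3, and the choice of the strongest summit was tested on simulated data. The gene set and lists were chosen with earlier results of these data known. Full values were to be given for the 15 genes with the highest IDR signal, genes of the like-named groups with a pooled-list peak and the 3 with the lowest IDR signal, and for the 5 other translation genes with the highest signal. PEK, Gcn2, Thor, Dhps and nero were named after their values were seen. Alternatives were other windows, matching distances and parts of the lists, and leaving out each replicate.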

Additional observations from a re-analysis of the deposited data

How the results depend on the processing

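The count of translation factor genes with an IDR promoter peak was 24 and ran between 18 and 30 over the alternatives. It was 23 with a 250 bp window (43.4%, against 21.6% of all genes), 28 with 1000 bp (52.8%, against 31.0%), 22 with the annotated gene start only (41.5%, against 24.2%) and 18 with the 3794 strongest IDR peaks (34.0%, against 16.9%). The share of the translation factor genes stayed above that of all genes under each of these. The count with a summit in every replicate was 18, and ran between 14 with matching within 50 bp and 21 within 200 bp or at any rank of the replicate lists. It was 22 when a replicate summit anywhere within 500 bp of a start site was accepted, chosen after seeing the data. Without a replicate it ran between 18 and 22. The median of the mean rank was 2225, and ran between 2022.5 and 2250.5 without a replicate. The same gene led in 8 or 9 of the 9 like-named groups under each alternative. These counts include the group of eIF4A and eIF4A3, where eIF4A3 was not ranked. The initiation count was 18 and ran between 12, with the strongest IDR peaks or a summit in every replicate, and 22. The elongation count was 4 and reached 6 with any pooled-list peak. The 12 and the 6 are 1.5 times from the main counts, and no count moved further. The IDR list could not be remade without a replicate, since it is the authors' own. No paired analysis was possible because there was 1 group. Read depth is unknown, the 3 replicates share a file taken here as the control, and no peak list of untagged embryos was analysed here.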
